A study of Mus musculus with 4 samples.

Results

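Mature neutrophils carrying the chemokine receptor Cxcr2 were examined in bone marrow of 5TMM mice, a model of multiple myeloma, after PM (purinostat mesylate, an inhibitor of class I and IIb histone deacetylases) or vehicle. The mice were of the C57BL/KawRij strain, had been injected intravenously with 5TGM1-luc myeloma cells at 6 weeks of age, and about 3 weeks later received vehicle (2 mice) or 10 mg/kg PM (2 mice) for 24 h. All mice of both groups thus carried myeloma, and there was no tumor-free group. Total marrow cells without red cells were profiled by droplet-based 3′ single-cell RNA sequencing, with 1 library per mouse, and values are counts of unique molecular identifiers (UMIs, 1 per captured transcript).

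Members were selected on raw UMIs of 7 genes, among cells of 300 or more genes whose mitochondrial share was not over 20%. They held at least 1 UMI of Cxcr2 and at least 1 of Csf3r, at most 2 of Ltf, no UMI of Ptgs2 or Csf1r, and at most 1 of Ifit1 and Ifit3 together. The cells were thus chosen by these genes, whose own levels are given only as values. The gates left 6147 of 39743 kept cells, that is 1810 and 1252 cells in vehicle 1 and vehicle 2, and 1817 and 1268 cells in PM 1 and PM 2. Median depth per member was 3491 and 3281.5 UMIs in the vehicle libraries and 2553 and 2790.5 UMIs in the PM libraries. The members of a library summed to between 5224819 and 7851933 UMIs.

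Neutrophils mature in the marrow from promyelocytes, which make the proteases of primary granules (Elane, Mpo, Prtn3), through myelocytes and metamyelocytes, which make the proteins of secondary granules (Ltf, Camp, Ngp), to band and segmented cells, which make tertiary granule enzymes such as Mmp9. Mature cells gain Cxcr2, the receptor that draws them out of the marrow towards CXC chemokines, and keep Csf3r, the receptor for G-CSF. They live briefly and respond to bacterial products, interleukin 1 and interferons with fast transcriptional programs.

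The markers that took no part in the gates fitted mature neutrophils for most cells. Retnlg, a resistin-like protein of late neutrophils, was detected in 96.6% and 93.5% of vehicle members and 96.0% and 95.03% of PM members. Mmp9, or gelatinase B, was detected in between 95.05% and 96.9% of the members of a library. Stfa2l1, a stefin of the latest stage, was found in a minority, 44.6% and 37.2% of vehicle members and 37.8% and 36.7% of PM members. In kept cells outside the gates these shares were lower in every library, from 56.0% to 72.5% for Retnlg, from 49.4% to 64.3% for Mmp9 and from 8.53% to 14.9% for Stfa2l1. Earlier neutrophils of the same mice were taken as cells with at least 10 Ltf UMIs and no Cxcr2 UMI. All of them also held a Csf3r UMI, and none held a UMI of Csf1r, Ptgs2 or the proliferation genes Mki67 and Top2a. In these cells Retnlg was found in 83.5%, 82.5%, 91.1% and 81.8% and Stfa2l1 in 6.19%, 3.17%, 4.02% and 4.42% (vehicle 1, vehicle 2, PM 1 and PM 2). Mmp9 was found in 90.7%, 90.5%, 96.9% and 92.8% of them, close to the members and in PM 1 above them, so that its share of cells did not set the members apart from this stage.

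A small set of deep cells went against the label. In all, 286 members (4.65%) held at least 5 UMIs of Elane, Mpo and Prtn3 together, with 64, 48, 110 and 64 such cells in vehicle 1, vehicle 2, PM 1 and PM 2. Their median depth was between 17757.5 and 25552 UMIs and their median sum of the 3 primary granule transcripts was between 476 and 577 UMIs. Between 56.3% and 62.7% of them entered through a single Cxcr2 UMI, and between 88.2% and 98.4% held a UMI of the proliferation genes Mki67 or Top2a. Their Retnlg level was between 328 and 1628 raw CPM (UMIs of a gene per 1000000 UMIs of the same cells), against 29384 to 36634 raw CPM in the other members of the same libraries. They are called precursor cells here for these transcripts.

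**Figure D1:**
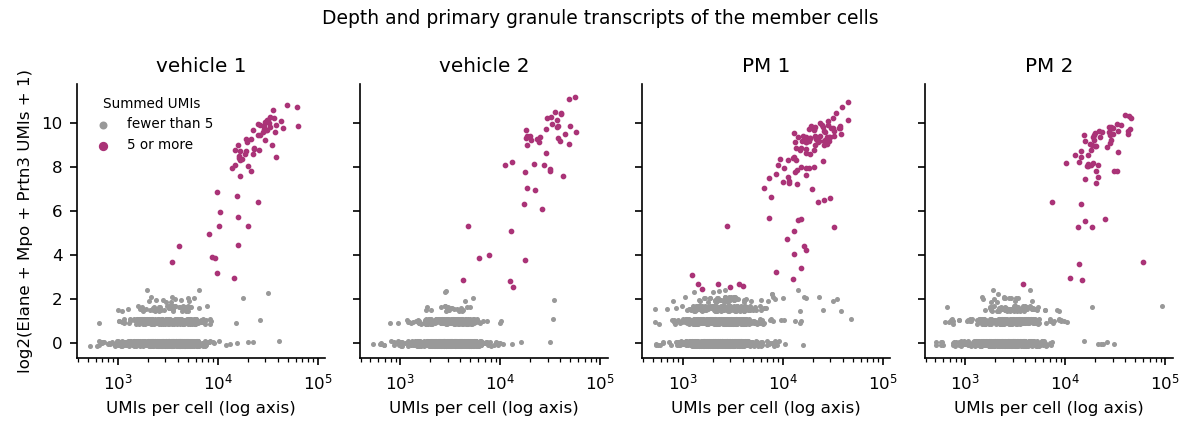
Each point is 1 member cell, with its UMIs on a log axis and log2 of its summed Elane, Mpo and Prtn3 UMIs plus 1, with a small vertical jitter, in 1 panel per library. The 286 purple cells with 5 or more such UMIs form a deep cloud apart from the 5861 grey cells in each of the 4 libraries.

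Because they are deep, the precursor cells carried 19.8% and 23.8% of the member UMIs in the vehicle libraries and 30.4% and 28.8% in the PM libraries. Their share of summed UMIs was thus higher in both PM libraries than in both vehicle libraries, and the comparison of treatments was repeated with the 5861 members without them, a choice made after the data were seen. A score against simulated doublets marked 128 members as doublets, 26 of them precursor cells. Of these, 8 (0.442% of members) were in vehicle 1, 17 (1.36%) in vehicle 2, 81 (4.46%) in PM 1 and 22 (1.74%) in PM 2, so that PM 1 held most of them. A further 227 members held 5 or more UMIs of B cell, T cell, hemoglobin or plasma cell genes. A Cxcr2 UMI was also found in 7.15% to 15.6% of cells with at least 2 Cd79a UMIs, which are B-like and should lack the receptor, and 1.71% to 2.70% of these cells passed all gates, at median depths of 2425 to 2752 UMIs. In T-like cells, with at least 2 UMIs of Cd3d and Cd3e together, these shares were 11.8% to 20.7% and 2.10% to 3.50% at median depths of 3882 to 4535 UMIs. Whether these UMIs came from free RNA or from doublets was not tested. Between 18 and 41 barcodes were shared by a pair of libraries, and at most 1 of these was a member in both.

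Cells lay close to several gates. At the Cxcr2 gate, 504 members had exactly 1 UMI, with a Retnlg level of 2539 to 6291 raw CPM, and the 1480 cells that failed this gate alone had 152 to 624 raw CPM. At the Ltf gate, 487 members had 2 UMIs and 211 otherwise like cells had 3, with Retnlg at 16626 to 21859 and 10595 to 20931 raw CPM. The Ltf gate alone removed 9186 cells, the 211 with 3 UMIs among them, against 6147 members. Most cells that passed the other gates thus failed on Ltf. Outside the members, a Cxcr2 UMI was found in 44.6% to 62.7% of the kept cells of a library. Another 1201 cells failed only for a Ptgs2 UMI, and 354 cells failed only for Ifit1 and Ifit3. The Csf1r gate alone removed 1193 cells and the Csf3r gate alone 794. Cells with 1 Ptgs2 UMI, the transcript of the prostaglandin synthase COX-2, had between 1959 and 3884 raw CPM of Il1b, against 732 to 1513 raw CPM among the members.

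Mature neutrophils were a smaller share of kept cells in the PM libraries. They made up 19.5% (exact 95% binomial interval 18.7 to 20.4) and 15.998% (15.2 to 16.8) of kept cells in the vehicle mice, and 13.6% (12.997 to 14.2) and 13.7% (12.99 to 14.4) in the PM mice. The groups did not overlap, and the means were 17.8 ± 2.51% and 13.6 ± 0.0758% (SD, n = 2 mice each). With 2 mice in each group the smallest two-sided p of an exact permutation test is 0.333, so that test could not reach 0.05, and no other test of the share was run. Intervals cover counting error only.

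The gates need UMIs of Cxcr2 and Csf3r, and PM members were shallower. With every cell of at least 2000 UMIs thinned to 2000 before gating, the share was 19.6% and 16.1% in vehicle and 10.2% and 12.3% in PM. Taken of cells with a Csf3r UMI, it was 25.8% and 26.0% against 23.2% and 21.6%. PM mice were below vehicle mice in all 4 pairs of libraries on each of these scales. A share of kept cells also falls when other cells become more numerous, and no absolute cell number was measured.

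**Figure D2:**
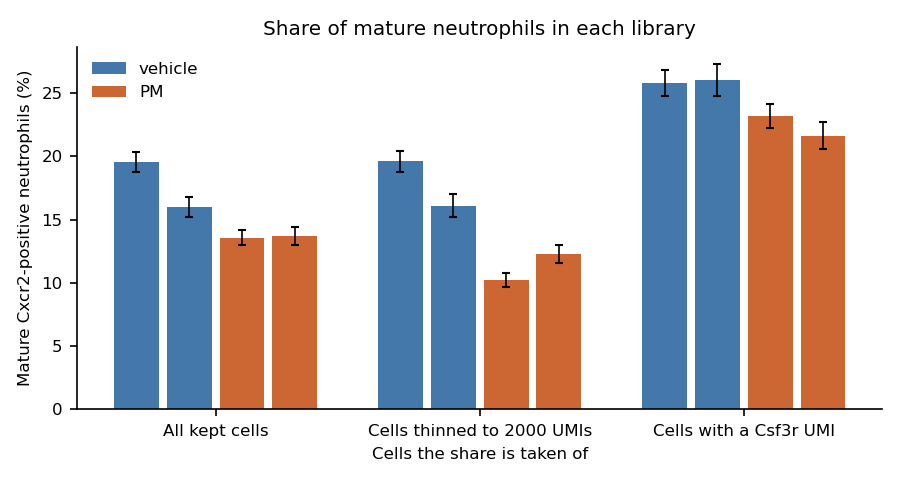
Bars are the percentage of cells that passed the gates in vehicle 1, vehicle 2, PM 1 and PM 2, left to right, for 3 choices of the cells the share is taken of, with exact 95% binomial intervals. Both PM bars lie below both vehicle bars in each set, with the largest gap after thinning to 2000 UMIs.

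The members differed among themselves with their Ltf count. Without precursor cells, 65.0%, 70.3%, 64.5% and 69.0% of members had no Ltf UMI in vehicle 1, vehicle 2, PM 1 and PM 2. Il1b, which encodes interleukin 1β, was highest in these cells and lower in members with 2 Ltf UMIs, at 1464 against 962 raw CPM in vehicle 1, 2104 against 721 in vehicle 2, 1210 against 509 in PM 1 and 2464 against 1189 in PM 2. Camp and Ngp ran the other way, with Ngp at 1223 against 2236 raw CPM in vehicle 1 and 2361 against 5119 raw CPM in PM 2. Il1b was lower, and Camp and Ngp higher, with 2 Ltf UMIs in each of the 4 libraries. Retnlg and Mmp9 had no common direction. From members with 0 to members with 2 Ltf UMIs, Retnlg went from 33488 to 29687 raw CPM in vehicle 1 and from 37871 to 30675 in PM 1, but from 32182 to 37379 in vehicle 2 and from 30147 to 31870 in PM 2. Mmp9 went from 4138 to 3991 and from 3602 to 2822 raw CPM in vehicle 1 and PM 1, and from 3822 to 4433 and from 3859 to 3966 in vehicle 2 and PM 2.

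In members without precursor cells thinned to 2000 UMIs, the median cell had 67, 69, 85 and 63 Retnlg UMIs and between 220 and 253 UMIs of S100a8, a calcium-binding subunit of calprotectin that was among the most abundant transcripts. Stfa2l1 and Il1b were patchy, with no Stfa2l1 UMI in 56.8% to 68.2% of cells and no Il1b UMI in 32.3% to 53.6%. Over the members of at least 2000 UMIs (1571, 1088, 1282 and 996 cells), thinned to 2000, the genes with the highest variance-to-mean ratio were Igha, Igkc, Hbb-bs, Hba-a1, Jchain, Hba-a2 and Hbb-bt, whose products belong to plasma and red cells. These were followed by S100a9, Camp and S100a8, with median ratios of 29.4, 29.2 and 29.0. The hemoglobin transcripts came from few cells, since only 16 to 35 members of a library held 5 or more hemoglobin UMIs. As many UMIs of Jchain were held by 2 to 5 members, and as many of Cd79a, Cd79b and Ighm together by 20 to 66. Cells holding Igha or Igkc were not counted.

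To compare gene expression between treatments, UMIs were summed over the members of each mouse, and PM was compared with vehicle by edgeR's quasi-likelihood test with Benjamini-Hochberg adjustment. A gene was called at an adjusted p under 0.05 and an absolute log2 fold change over 0.5. Of 32285 genes, 10973 passed the filter on low counts, and 112 of these were called higher (1.02%) and 126 lower (1.15%) with PM. Without precursor cells, 9442 genes were tested, and 291 were called higher (3.08%) and 117 lower (1.24%). Leaving out vehicle 1, vehicle 2, PM 1 or PM 2 gave 37, 185, 101 and 33 genes called higher and 10, 397, 46 and 9 called lower with all members. Without precursor cells the same omissions gave 292, 722, 55 and 256 called higher and 124, 413, 5 and 77 called lower. Of the genes called with all members, 94 of 112 higher and 72 of 126 lower genes were called without precursor cells too. Without the marked doublets 93 were called higher and 91 lower. Both replicate pairs were alike, with a correlation of log2 CPM across genes of 0.976 between the vehicle libraries and 0.980 between the PM libraries, against 0.960 to 0.968 between groups.

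Fxyd7 was the gene that set the PM libraries apart most plainly. It encodes a small membrane protein of the FXYD family, which regulates the sodium-potassium pump. The members held 0 and 4 of its UMIs in vehicle 1 and vehicle 2, and 324 and 255 in PM 1 and PM 2. This is a ratio of raw CPM of 159 with a 95% counting interval of 61.7 to 584, and edgeR's quasi-likelihood test gave a Benjamini-Hochberg adjusted p of 0.00129. Among the members, 11.8% and 11.4% of cells in the PM libraries held a Fxyd7 UMI, against 0.240% in vehicle 2 and 0 of 1810 in vehicle 1, which allows up to 0.166%. Cells with neither a Cxcr2 nor a Csf3r UMI had 0.0947 and 0.0574 raw CPM of Fxyd7 in vehicle and 1.66 and 1.27 in PM. The transcript was thus at a far lower level outside the neutrophils in the same libraries, and neutrophils high in Ltf had none in any library.

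Other large rises were those of Gngt2, Apoe and Ccl9. Gngt2, a gamma subunit of G proteins, had 10.2 and 17.2 CPM (here raw CPM normalized between libraries by TMM) in vehicle and 61.1 and 47.8 CPM in PM, a log2 fold change of 2.01 ± 0.24 (SE). Apoe, which encodes apolipoprotein E, had 26.7 and 32.9 CPM in vehicle and 117 and 103 CPM in PM, a log2 fold change of 1.89 ± 0.16. Ccl9, a CC chemokine, rose from 35.1 and 38.3 CPM to 115 and 96.8 CPM, by 1.53 ± 0.15 on the log2 scale. These genes were chosen among those whose PM mice lay on one side of the vehicle mice, as 3266 of the 10973 genes did on the higher and 3130 on the lower side, so that the gap between groups is no further support. Each kept its call without precursor cells, with log2 fold changes of 2.40, 2.35 and 2.14. Cells with neither Cxcr2 nor Csf3r held 177 to 224 raw CPM of Apoe, above the members of every library, 63.2 to 204 of Ccl9 and 29.8 to 86.4 of Gngt2, and the part of other cells in these rises was not tested.

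Of surface receptors, Itgb7, the integrin β7 chain, rose from 12.3 and 17.8 CPM to 49.7 and 46.1 CPM. It stood at 138 and 98.6 raw CPM in vehicle and 128 and 90.8 in PM in cells with neither Cxcr2 nor Csf3r, above the members. Pecam1, which encodes the junctional receptor CD31, rose from 15.1 and 14.1 CPM to 42.2 and 40.9 CPM, with a log2 fold change of 1.51 ± 0.15. Siglecg, an inhibitory receptor for sialic acids, rose from 21.2 and 31.1 CPM to 70.4 and 61.2 CPM. Without precursor cells the log2 fold changes of Itgb7, Pecam1 and Siglecg were 1.87, 1.83 and 1.71, and all 3 were called. Pecam1 (59.7 to 72.8 raw CPM) and Siglecg (40.6 and 89.6 in vehicle, 105 and 96.1 in PM) were also above the members in cells with neither Cxcr2 nor Csf3r, and the part of other cells in these 3 rises was not tested. With the gate gene Cxcr2 left out, Pecam1 was the 1 called member of 20 tested chemokine receptor and adhesion genes (median log2 fold change -0.29), where Cxcr4, which retains leukocytes in the marrow, had a log2 fold change of 0.18 and was not called.

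Ptms, or parathymosin, rose from 50.5 and 72.3 CPM to 161 and 174 CPM, Selenow from 11.2 and 15.01 CPM to 34.7 and 32.7 CPM, and the predicted gene Gm31583 from 11.3 and 15.6 CPM to 32.1 and 39.8 CPM. By edgeR these 3 kept their calls without precursor cells, with log2 fold changes of 1.66, 1.33 and 1.66, while Selenow lost its call there by DESeq2. Selenow stood at 116 to 173 raw CPM in cells with neither Cxcr2 nor Csf3r, above the members. Ptms stood at 154 and 113 raw CPM in such cells in vehicle and at 154 and 165 in PM. Lgals1, which encodes galectin 1, had 29.0 and 24.9 CPM in vehicle and 110 and 65.6 CPM in PM, and Crip1, a small LIM-domain protein, had 45.1 and 50.9 CPM against 151 and 104 CPM. By edgeR, Lgals1 and Crip1 were called with all members (adjusted p of 0.0314 and 0.0137) but not without precursor cells (0.0987 and 0.256). Their log2 fold changes were 1.57 and 1.79 there, against 1.71 and 1.41 with all members. DESeq2 called Lgals1 without precursor cells, but not Crip1. Cells with neither Cxcr2 nor Csf3r held 330 to 496 raw CPM of Lgals1 and 800 to 1042 raw CPM of Crip1, above the members, and the part of other cells in these 2 rises was not tested.

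**Figure D3:**
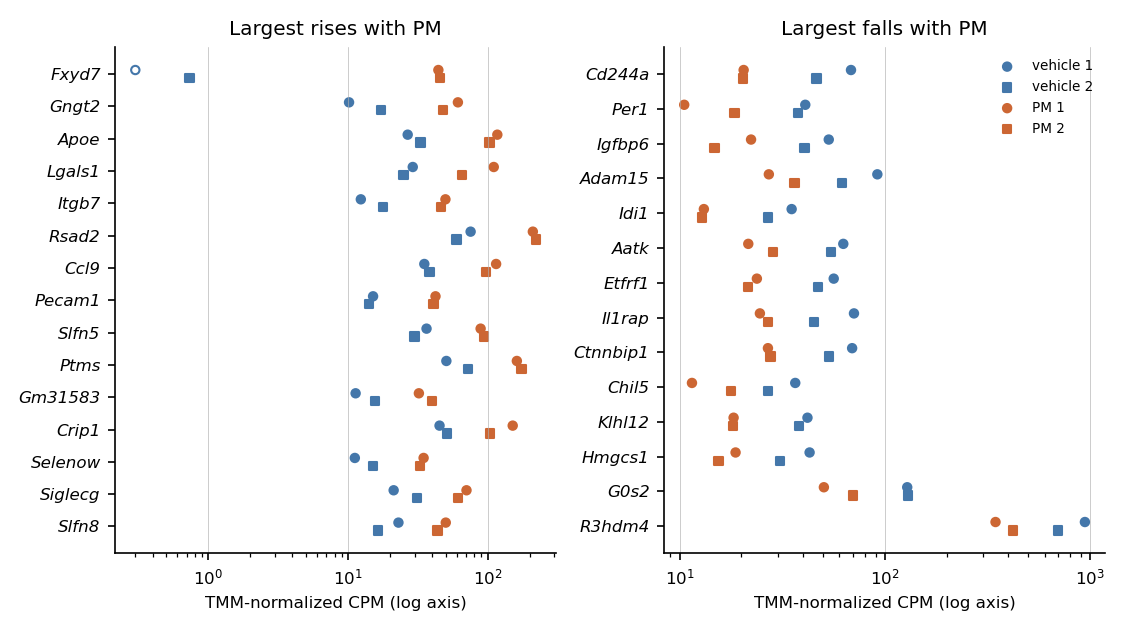
TMM-normalized CPM on a log axis of the 15 genes with the largest rises and 14 of the 15 with the largest falls among called genes of at least 20 CPM, in vehicle (blue) and PM (orange), with circles for mouse 1 and squares for mouse 2. The open circle marks 0 UMIs of Fxyd7 in vehicle 1, drawn at the left edge, and for every gene shown both PM points lie on one side of both vehicle points, as the choice of genes required.

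The largest falls included those of 2 enzymes of cholesterol synthesis. Idi1 (isopentenyl diphosphate isomerase) fell from 35.1 and 26.9 CPM to 13.1 and 12.8 CPM, by 1.26 on the log2 scale, with an adjusted p of 0.0140 by edgeR's quasi-likelihood test. Hmgcs1 (HMG-CoA synthase) fell from 43.0 and 30.7 CPM to 18.7 and 15.5 CPM. Both were called without precursor cells, with log2 fold changes of -1.72 and -1.52.

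Cd244a, Il1rap, Adam15 and Igfbp6 fell as well. Cd244a, a receptor of the SLAM family, fell from 68.4 and 46.5 CPM to 20.5 and 20.3 CPM, a log2 fold change of -1.50 ± 0.20. Il1rap, the accessory chain of the interleukin 1 receptor, fell from 70.7 and 45.2 CPM to 24.6 and 26.9 CPM. Adam15, a membrane metalloprotease, fell from 91.9 and 61.9 CPM to 27.2 and 36.3 CPM. Igfbp6, which binds insulin-like growth factors, fell from 53.3 and 40.6 CPM to 22.3 and 14.8 CPM. Each was called without precursor cells, with log2 fold changes of -1.35, -1.26, -1.53 and -1.09.

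Per1, a repressor of the circadian clock that glucocorticoids induce, fell from 40.9 and 37.7 CPM to 10.5 and 18.5 CPM, a log2 fold change of -1.46 ± 0.24. Aatk (a kinase), Etfrf1 (a regulator of the electron transfer flavoprotein), Ctnnbip1 (an inhibitor of β-catenin) and Klhl12 (a ubiquitin ligase adaptor) fell by between 1.13 and 1.24 on the log2 scale. Each of these 5 was called without precursor cells as well. Per1 lost its call with at least 2 Cxcr2 UMIs, with 0 Ltf UMIs only and with cells thinned to 2000 UMIs. Over all settings run, the log2 fold change of Per1 lay between -1.91 and -1.07. G0s2, an inhibitor of the lipase ATGL, fell from 128 and 129 CPM to 50.4 and 69.9 CPM, and R3hdm4, the most abundant gene of this group, from 943 and 695 CPM to 346 and 419 CPM. By edgeR, G0s2, R3hdm4 and the chitinase-like gene Chil5 were called with all members only, with adjusted p of 0.0617, 0.0555 and 0.0743 without precursor cells. Their log2 fold changes were -1.10, -1.10 and -1.14 with all members and -1.07, -0.92 and -0.90 without precursor cells. DESeq2 called G0s2 and R3hdm4 without precursor cells too, but not Chil5.

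The falls lost their calls more often than the rises did when 1 mouse was left out. Such a fit holds 1 mouse in a group, so a lost call does not show that a change rested on the mouse left out. Without vehicle 1, 2 of the 15 largest falls, Cd244a among them, were called, and without PM 2, 3 were called (Per1, Aatk and G0s2). Without vehicle 2 all 15 were called, and without PM 1, 11 were. Of the 15 largest rises, 10, 14, 15 and 13 were called without vehicle 1, vehicle 2, PM 1 and PM 2. The direction of all 30 genes was unchanged in each of these fits.

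**Figure D4:**
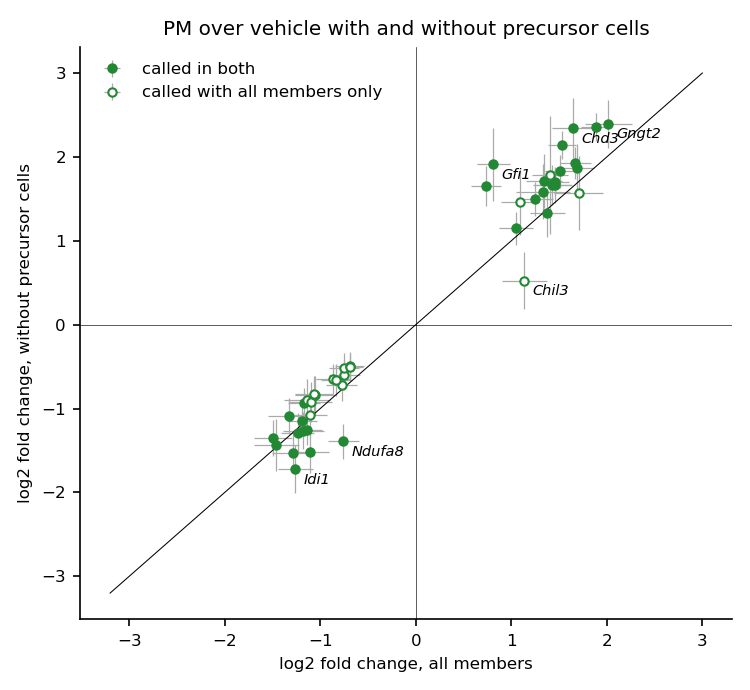
Log2 fold change of PM over vehicle with all 6147 members (x axis) and with the 5861 members that are left without precursor cells (y axis) for 45 named genes, with standard errors, the line of equality, and Fxyd7 and lymphoid and macrophage markers left out. Filled points are the 29 genes called in both fits and open points the 16 called with all members only, and every gene keeps its direction.

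Some transcripts of late maturation were called lower in PM members, and the calls depended on the precursor cells. Of 22 tested genes of this list, none was called higher and 5 were called lower, with a median log2 fold change of -0.50 against 0.02 over all genes tested. Over all genes, 1.02% were called higher and 1.15% lower with all members, the shares beside which the counts of each list stand. Mmp25, a membrane-bound metalloprotease of neutrophils, had 407 and 292 CPM in vehicle and 150 and 186 CPM in PM. Slc40a1, the iron exporter ferroportin, had 297 and 277 CPM against 177 and 165 CPM. The stefins Stfa1, Stfa2 and Stfa3, inhibitors of cysteine proteases, had log2 fold changes of -0.75, -0.87 and -0.90, and reads of these near-identical genes may be split between copies. Without precursor cells none of the 22 was called, by edgeR's quasi-likelihood test with the same thresholds, and the median was -0.26. The log2 fold changes of Mmp25, Slc40a1, Stfa1, Stfa2 and Stfa3 were then -0.84, -0.60, -0.51, -0.65 and -0.66, against -1.06 and -0.75 for Mmp25 and Slc40a1 with all members. There 6 were lower at an unadjusted p under 0.05 and DESeq2 called 2 lower. With all members DESeq2 called 7 lower. The median with all members was -0.26 without vehicle 1, -0.72 without vehicle 2, -0.46 without PM 1 and -0.54 without PM 2. By edgeR none of the 22 was called with at least 2 Cxcr2 UMIs, with 0 Ltf UMIs only, or without the gates on Ptgs2, Ifit1 and Ifit3. Without the marked doublets 2 were called lower. With cells thinned to 2000 UMIs 1 was called lower and the median was -0.20. Without precursor cells and without members of other lineages none was called and the median was -0.09.

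The 2 markers Retnlg and Mmp9 were not called, with 30372 and 25214 CPM of Retnlg in vehicle and 24653 and 19560 CPM in PM. Stfa2l1 had 1277 and 961 CPM against 709 and 696 CPM (adjusted p of 0.113, edgeR). Among the gate genes, Cxcr2 had 1975 and 1489 CPM in vehicle and 1175 and 1380 CPM in PM, and Csf3r had 1562 and 1315 CPM against 934 and 1065 CPM. Ltf had 115 and 85.8 CPM against 112 and 91.4 CPM, which the gate had capped.

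Genes of earlier stages gave few calls. Of 17 secondary and tertiary granule genes, Chil3, a chitinase-like lectin, was called higher (513 and 338 CPM in vehicle, 947 and 925 CPM in PM), and it lost the call without precursor cells (98.0 and 75.5 CPM against 167 and 82.6 CPM). There, of 16 tested, Camp (cathelicidin, log2 fold change 1.20) and Serpinb1a (an inhibitor of neutrophil elastase, 0.87) were called higher instead. None of 9 primary granule genes was called with all members by edgeR or DESeq2 (median log2 fold change 0.19, with 1 higher and 1 lower at an unadjusted p under 0.05). Without precursor cells the median was 1.22, with 6 of the 9 higher and none lower at an unadjusted p under 0.05 (edgeR). Elane and Mpo were called higher there, with log2 fold changes of 1.44 and 1.37. The cells richest in them had been removed by these same genes, so these values are a description. In members without precursor cells Mpo stood at 31.8 and 27.8 raw CPM in vehicle and 106 and 59.7 in PM, against 7498 to 9617 in the precursor cells.

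Receptors for microbial products gave calls in 1 direction. Of 26 tested Toll-like and lectin receptor genes, none was called higher and 3 were called lower, against 1.02% and 1.15% of all genes tested. The median log2 fold change of the list was -0.33. Tlr4, the receptor for lipopolysaccharide, had 62.4 and 51.8 CPM in vehicle and 29.1 and 35.4 CPM in PM. Tlr13, which senses bacterial ribosomal RNA, had 131 and 90.0 CPM against 46.7 and 59.4 CPM, and the adaptor kinase Irak4 had 95.7 and 71.2 CPM against 46.2 and 51.4 CPM. With all members the log2 fold changes of Tlr4, Tlr13 and Irak4 were -0.83, -1.07 and -0.78. Without precursor cells they were -0.66, -0.83 and -0.71 with adjusted p of 0.0748, 0.0574 and 0.0658 (edgeR), none of the list was called by edgeR or DESeq2, and the median was -0.10, with 2 higher and 3 lower at an unadjusted p under 0.05. With members of other lineages left out as well, none was called by edgeR and the median was 0.04. Without vehicle 1 or without PM 1 none of the 26 was called with all members, without PM 2 or without the marked doublets, 1 was, and without vehicle 2, 6 were.

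Type I interferon-induced genes included 7 called higher and none called lower among 51 tested, with a median log2 fold change of 0.19. Of all genes tested, 1.02% were called higher and 1.15% lower. Rsad2, which encodes the antiviral enzyme viperin, had 75.3 and 59.8 CPM in vehicle and 210 and 221 CPM in PM, a log2 fold change of 1.67 ± 0.16 with an adjusted p of 0.00351 by edgeR's quasi-likelihood test. Slfn5 rose from 36.4 and 29.8 CPM to 88.8 and 93.7 CPM, and Slfn8, of the same Schlafen family, from 22.9 and 16.3 CPM to 50.02 and 43.6 CPM. The tetherin gene Bst2 had 25.4 and 17.0 CPM against 49.6 and 41.1 CPM, and 207 to 242 raw CPM in cells with neither Cxcr2 nor Csf3r. Slfn5 stood at 50.4 to 94.9 and Slfn8 at 29.8 to 48.9 raw CPM in such cells. The part of other cells in the rises of these 3 genes was not tested. Mndal, Usp18, which removes the ubiquitin-like protein ISG15, and Lgals3bp were also called.

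Rsad2 was found in 10.6% and 9.81% of vehicle members and 32.4% and 31.8% of PM members when members other than the precursor cells were thinned to 2000 UMIs. In cells with neither Cxcr2 nor Csf3r it stood at 24.7 and 20.3 raw CPM in vehicle and 33.8 and 45.2 in PM. Isg15 itself was not called, at 37.9 and 31.7 CPM in vehicle and 43.7 and 37.9 CPM in PM. The gate on Ifit1 and Ifit3 had removed the cells richest in this response. Without that gate and the one on Ptgs2, 6 of 52 genes of the list were called higher, against 0.772% of all genes tested there. Without precursor cells 9 of 50 were, against 3.08% of all genes tested there, now with Irf7, Oasl1, Ifi44 and Ifit3b and without Bst2 and Lgals3bp. Those 2 lost their calls with log2 fold changes of 1.46 and 1.46, against 1.09 and 1.07 with all members (adjusted p of 0.0864 and 0.0737, edgeR). Leaving out vehicle 1, vehicle 2 or PM 1 left 5 genes called higher, and leaving out PM 2 left 2. Without vehicle 2, 3 were called lower and the median was -0.03.

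The promoters of these genes were read on both strands for 2 copies of GAAA with any 2 bases between them, the core of the interferon-stimulated response element, in RefSeq windows (GRCm38.p6) from 250 bases before to 50 after the start site. Of the 7 called genes 6 had a window, and 5 of these held the letters (Rsad2, Slfn5, Slfn8, Mndal and Bst2). Of 41 tested genes of the list with a window, 20 did (48.8%), against 3.44% of all 32851 windows and 4.02% of the genes tested in the members. A match is a description of the sequence and not of a bound site. Windows of 4 of them are printed 5′ to 3′ on the strand of the gene, with the match in capitals, to show how close to the start site it lies. The Rsad2 window (chr12:26456551-26456584, minus strand) ends its match 110 bases before the start site, Slfn5 (chr11:82951935-82951968, plus strand) 145 bases, Slfn8 (chr11:83020837-83020870, minus strand) 38 bases and Mndal (chr1:173880202-173880235, minus strand) 26 bases.
Rsad2: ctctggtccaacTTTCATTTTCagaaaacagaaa
Slfn5: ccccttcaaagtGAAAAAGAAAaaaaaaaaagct
Slfn8: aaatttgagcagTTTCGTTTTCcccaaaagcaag
Mndal: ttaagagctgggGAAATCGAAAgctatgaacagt

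Of histone deacetylases, whose class I and IIb members the drug inhibits, and of corepressors, 25 genes were tested. Hdac7, a class IIa deacetylase, rose from 17.0 and 17.2 CPM to 28.8 and 27.9 CPM, and the helicase gene Chd3 of the NuRD complex from 4.94 and 6.22 CPM to 17.1 and 17.6 CPM. Both were called without precursor cells (log2 fold changes of 1.65 and 2.34). Their levels in cells with neither Cxcr2 nor Csf3r were higher, at 67.2 to 124 raw CPM for Hdac7 and 50.8 to 97.3 for Chd3, and the part of other cells in these rises was not tested. Hdac4, also of class IIa, fell from 174 and 145 CPM to 97.6 and 99.97 CPM and lost its call without precursor cells, where its log2 fold change was -0.50 against -0.69 with all members (adjusted p of 0.122, edgeR). The class I genes Hdac1, Hdac2 and Hdac3 had log2 fold changes of 0.04, 0.09 and 0.05 and were not called. Hdac8 of class I and Hdac6 and Hdac10 of class IIb were low, at 1.45 to 4.45 CPM, and had log2 fold changes of 0.54, 0.10 and 0.16 with no call. None of 16 histone acetyltransferases and acetyl-lysine readers and none of 50 histone genes was called with all members by edgeR or DESeq2, with 3 of the former lower and 5 of the latter higher at an unadjusted p under 0.05. Over all genes 1275 were higher and 1461 lower at that level. Without precursor cells the histone genes Hist1h2bc and Hist1h4i were called higher.

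Of 40 tested myeloid transcription factors, Gfi1, a transcriptional repressor needed for neutrophil development, rose from 49.9 and 41.4 CPM to 69.0 and 91.8 CPM. Rxra, a nuclear receptor, rose from 3.48 and 4.58 CPM to 11.2 and 8.89 CPM, and both kept their calls without precursor cells, where Runx3 was called higher too. Most Gfi1 UMIs lay in the precursor cells, and without them its level was 1.58 and 2.09 CPM in vehicle and 7.09 and 6.68 CPM in PM, from 9, 9, 36 and 25 UMIs. Foxo3 fell from 96.2 and 86.8 CPM to 58.1 and 55.9 CPM, a log2 fold change of -0.68. It was not called without precursor cells, where it had 110 and 101 CPM against 73.5 and 75.3 CPM (-0.51, adjusted p of 0.0908, edgeR). Per1 was the 1 called gene among 13 clock genes and among 13 glucocorticoid-responsive genes, where Tsc22d3 and Fkbp5, both induced by glucocorticoids, had log2 fold changes of -0.27 and -0.02 and were not called. Without precursor cells Zbtb16 and Tef of these lists were called higher, at 2.28 and 4.18 CPM against 11.2 and 9.89 CPM for Zbtb16 and 0.351 and 0.697 CPM against 3.15 and 3.47 CPM for Tef.

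**Figure D5:**
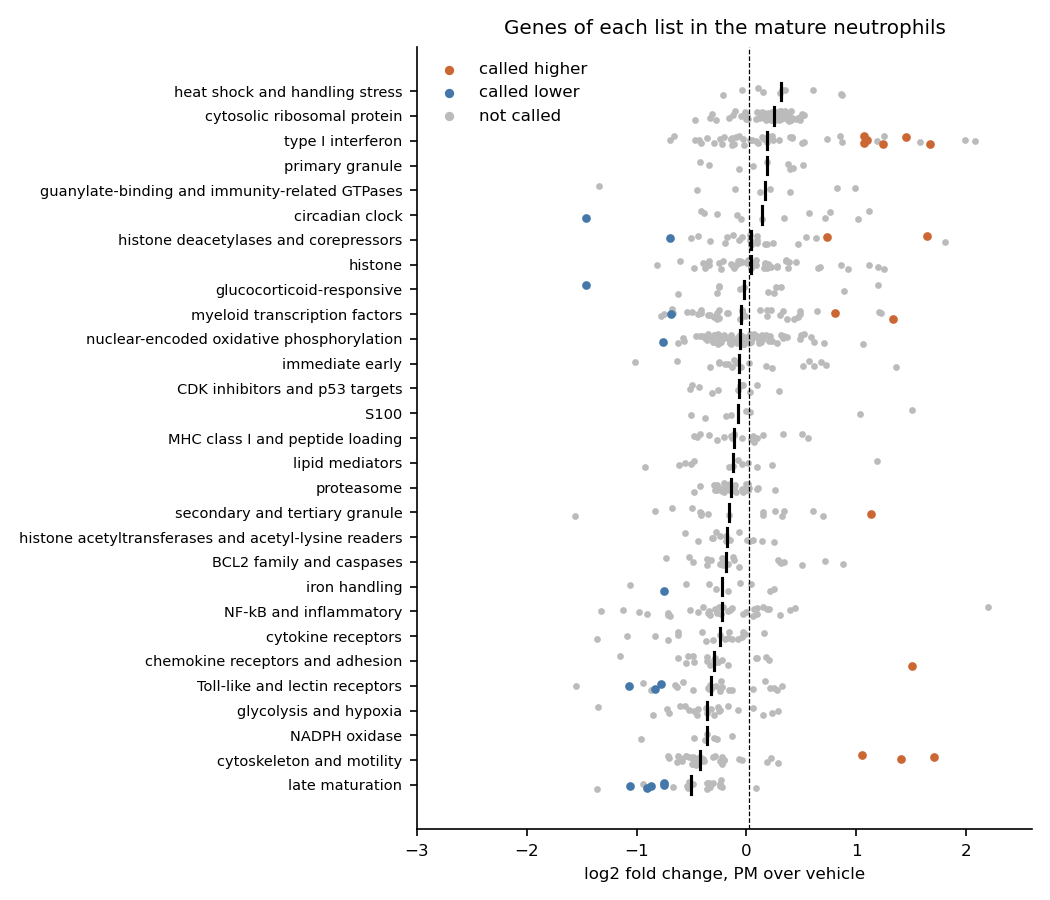
Log2 fold change of PM over vehicle for each tested gene (points) of 29 gene lists without the gate genes, with the list's median as a black bar and the median over all genes as a dashed line. Orange points were called higher and blue points lower, and in most lists the points are grey, as few genes were called.

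Most genes of effector function were not called. By edgeR's test no gene was called among 34 NF-kB and inflammatory genes (median log2 fold change -0.23), 19 cytokine receptors other than the gate gene Csf3r (-0.24), 7 NADPH oxidase subunits (-0.36), 22 BCL2 family and caspase genes (-0.18), 19 MHC class I genes (-0.11) and 8 S100 genes (-0.07). At an unadjusted p under 0.05 there were 1, 0, 0, 2, 0 and 2 higher and 5, 6, 1, 2, 3 and 0 lower in these lists, in that order, and DESeq2 called 1, 0, 0, 0, 0 and 2 higher and 1, 3, 1, 0, 0 and 0 lower. Il1b had 1231 and 1453 CPM in vehicle and 694 and 1406 CPM in PM, so that PM 2 lay within the vehicle range. Tnf, a cytokine named by the study, had 12.3 and 17.0 CPM against 11.2 and 12.8 CPM, and the groups overlapped. Cxcl2, a neutrophil-attracting chemokine, had 1007 and 665 CPM against 151 and 515 CPM, with a log2 fold change of -1.33 ± 0.72 and an adjusted p of 0.345 by edgeR's quasi-likelihood test. Ccl3 had 17.4 and 30.2 CPM against 81.5 and 136 CPM and an adjusted p of 0.0703. Without precursor cells Casp1, the protease that matures interleukin 1β, was the 1 called gene of these 6 lists (log2 fold change -0.82). There 1, 0, 0, 4, 0 and 2 were higher and 2, 4, 1, 1, 3 and 0 lower at an unadjusted p under 0.05, and DESeq2 called 1, 0, 0, 1, 0 and 0 higher and 0, 1, 1, 0, 0 and 0 lower.

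Motility genes had a median below 0 with a few rises. Of 36 cytoskeleton and motility genes, Tmsb10, Crip1 and Lgals1 were called higher and none lower, and the median log2 fold change was -0.42. At an unadjusted p under 0.05, 3 were higher and 17 lower, and DESeq2 called 3 higher and 5 lower. Without precursor cells Tmsb10 was the 1 edgeR call, with 4 higher and 7 lower at that level and 3 higher and 2 lower by DESeq2, and without vehicle 1 none was called with all members. Tmsb10, an actin-sequestering thymosin, rose from 157 and 140 CPM to 342 and 273 CPM. Its level in cells with neither Cxcr2 nor Csf3r was between 1240 and 1513 raw CPM, above the members.

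For mitochondrial and protein folding genes, more calls were made without precursor cells than with all members. Of all genes, 3.08% were called higher and 1.24% lower without precursor cells. Of 88 tested genes of oxidative phosphorylation, Ndufa8, a subunit of complex I, was called lower with all members (77.2 and 76.0 CPM in vehicle, 51.4 and 39.0 CPM in PM). Without precursor cells 6 of 86 were called lower, the complex I genes Ndufa3, Ndufa8, Ndufb1-ps and Ndufv3 with Cox6a1 and Atp5k, and 1, the assembly factor Ndufaf4, was called higher, with a median of -0.20. Of 9 heat shock genes 4 were called higher there, namely Hspa1b, Hsph1, Hspe1 and Hspd1, with a median of 0.73, while none of 10 was called with all members by edgeR or DESeq2 (3 higher at an unadjusted p under 0.05). The mitochondrial chaperonins Hspd1 and Hspe1 had log2 fold changes of 1.61 each. With members of other lineages left out as well, no heat shock gene of 8 was called, and the median was 0.53, against 0.32 with all members. Cytosolic ribosomal protein genes had no edgeR call in either set, with medians of 0.25 and 0.44 over 80 genes. Without precursor cells 24 were higher and 2 lower at an unadjusted p under 0.05, against 1397 higher and 948 lower of all 9442 genes, and DESeq2 called 8 higher and 1 lower, while with all members these counts were 0.

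The remaining lists gave few or no calls. None of 8 guanylate-binding and immunity-related GTPases, 20 immediate early genes, 12 CDK inhibitor and p53 target genes, 23 glycolysis and hypoxia genes, 13 lipid mediator genes and 37 proteasome genes was called with all members by edgeR. At an unadjusted p under 0.05 there were 1, 3, 0, 0, 1 and 0 higher and 0, 0, 3, 10, 5 and 1 lower in that order, and DESeq2 called 3 glycolysis and hypoxia genes and 1 lipid mediator gene lower. Of 10 iron handling genes the 1 edgeR call was Slc40a1. Medians lay between -0.36 for glycolysis and hypoxia and 0.17 for the GTPases. Without precursor cells the immediate early gene Jun was called higher with a log2 fold change of 1.07, and no other gene of these lists was called by edgeR. There 1, 4, 0, 1, 2 and 0 genes of the first 6 lists were higher and 0, 0, 0, 9, 3 and 8 lower at an unadjusted p under 0.05, and DESeq2 called 1 immediate early gene higher and 2 glycolysis and hypoxia genes lower.

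Markers of other cells also moved between the groups within the members. The summed level of 12 B cell markers was 129 and 389 raw CPM in vehicle and 683 and 468 in PM, with Ighm the most abundant. Vpreb1 and Igll1, parts of the pre-B cell receptor, had 3 and 3, and 0 and 1 UMIs in vehicle, and 65 and 40, and 64 and 24 UMIs in PM. For 14 T and NK markers the sums were 134 and 185 against 307 and 218 raw CPM (Nkg7 leading), with Trbc1 and Cd8a called higher. These 4 genes were called without precursor cells too. Nkg7, which is also in the primary granule list, held 117 and 153 raw CPM of these sums in vehicle and 237 and 165 in PM. Without precursor cells the T and NK sums were 25.7 and 45.7 against 106 and 69.9 raw CPM (Cd3d leading). Sums of 14 monocyte markers were 1132 and 953 against 1793 and 1698 raw CPM (Ly6c2 leading, Csf1r at 0 by the gate), and of 11 plasma cell markers 4082 and 602 against 4453 and 11436 raw CPM (Igkc leading).

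Dendritic (11 genes), stromal (8), megakaryocyte (8), eosinophil (6) and precursor (12) markers were also higher in both PM libraries than in both vehicle libraries. Dendritic markers summed to 63.4 and 69.4 against 248 and 142 raw CPM, where Bst2, also an interferon-induced gene, led, and stromal markers to 18.6 and 21.0 against 52.9 and 66.0, where Pecam1 led. Macrophage markers were lower, at 416 and 411 against 386 and 396 raw CPM, led by Slc40a1, while Vcam1 and C1qa of that list were called higher. Erythroid markers (583 and 2338 raw CPM in vehicle, 835 and 1106 in PM) and basophil markers overlapped between groups. The only marker at 0 in every library was Csf1r. The part of such transcripts in the called genes was not tested as a whole. Without precursor cells and without members of other lineages, 121 of 8339 genes were called higher and 43 lower. Of the 15 largest rises 11 kept their call, all but Lgals1, Itgb7, Crip1 and Selenow. Of the 15 largest falls 9 kept theirs, all but Per1, Igfbp6, Ctnnbip1, Chil5, G0s2 and R3hdm4. The B cell sums were then 96.9 and 131 in vehicle and 197 and 174 raw CPM in PM.

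To set mature cells beside an earlier stage, the PM effect was compared with that in 628 earlier neutrophils (97, 126, 224 and 181 cells), with the mouse as a block. These had at least 10 Ltf UMIs, a Csf3r UMI and no UMI of Cxcr2, Csf1r, Ptgs2, Mki67 or Top2a. Cells with a proliferation transcript were thus absent from them, while 630 members held a Mki67 or Top2a UMI. Of 10258 genes tested, 32 had a higher PM effect in mature members (0.312%) and 110 a lower one (1.07%) by edgeR's quasi-likelihood test. Without precursor cells these were 40 and 57 genes, and with every cell thinned to 2000 UMIs 21 and 31. Leaving out PM 1 gave 19 and 48 genes and leaving out PM 2 gave 15 and 166. Apoe rose in the members, while the Ltf-high cells held 15 and 7 UMIs in vehicle and 15 and 8 in PM, and the difference of the log2 effects was 2.49 ± 0.53 (adjusted p of 0.00756). It was 2.904 and called without precursor cells, but 1.38 without vehicle 1, 1.37 without the marked doublets and 2.15 with cells thinned to 2000 UMIs, with no call (adjusted p of 0.506, 0.369 and 0.301, edgeR). Retnlg went the other way, since Ltf-high cells had 1665 and 1250 raw CPM in vehicle and 3741 and 2771 in PM, while the log2 fold change in mature members was -0.33, a difference of -1.32 with an adjusted p of 1.40e-07. It was -1.17 without precursor cells (adjusted p of 0.000911, edgeR) and -1.22 without PM 1, where it lost its call (0.0725).

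Several changes were present in both stages. In Ltf-high cells tested alone, Rsad2, Ptms, Crip1, Siglecg and Tmsb10 were called higher, with log2 fold changes of 1.91, 2.34, 1.93, 1.10 and 0.92, and Idi1 was called lower, with -1.74, by edgeR's quasi-likelihood test. Across 6324 genes tested in these cells, 54 were called higher and 9 lower. The Ltf-high cells of a library summed to between 590534 and 1239946 UMIs, against at least 5224819 UMIs of the members.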

How the data were processed

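Raw counts (UMIs per gene and cell barcode) were deposited by the authors without normalization, as filtered matrices of Cell Ranger 6.0.1 per the file headers. The submitters' processing notes name GRCm39 and the study's methods GRCm38, so coordinates are printed only for RefSeq promoters of GRCm38.p6. Groups came from the sample titles, with 1 library per mouse.

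Deposited barcodes (41393) were filtered and gated as stated in the report. Doublets were scored per library against simulated doublets (scikit-learn 1.9.0, threshold by scikit-image 0.26.0). Counts were summed per mouse and tested with edgeR 4.0.16 in R 4.3.3 (TMM, filterByExpr, robust quasi-likelihood fit) and with DESeq2 1.42.0 as an alternative. Member sums were between 5224819 and 7851933 UMIs per library. Replicates were separate mice. Precursor cells, other-lineage cells, the crossed block and the sterol genes were chosen after the data were seen.

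Named genes were the gate genes and markers, the 15 largest rises and 15 largest falls (called, mean CPM of 20 or more, PM mice all on one side of vehicle mice, no immunoglobulin, T cell receptor, mitochondrial, hemoglobin or gate gene), up to 4 called genes per list by abundance, Tnf and Isg15, the 5 largest differences each way from Ltf-high neutrophils, and the 10 most variable genes. Other genes named were chosen after their values were seen. Some genes that meet these rules are not reported here. The members and the 41 gene lists were chosen with earlier results of these data known.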

Additional observations from a re-analysis of the deposited data

Results flagged for a closer look

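The PM effect in mature neutrophils differed from that in Ltf-high neutrophils for 10 genes given here, the 5 largest differences in each direction among the genes called by edgeR's interaction test with Benjamini-Hochberg adjustment, each flagged as a difference between cell groups under the same treatment. Above were Ccl4 (difference of log2 effects 6.07, adjusted p 2.38e-06), Ccl3 (4.77, 0.0182) and Ccl9 (2.88, 0.00636), all CC chemokines, the immediate early gene Egr1 (2.76, 8.46e-08) and Apoe (2.49, 0.00756). For Ccl4 the difference lay in the Ltf-high cells, with 4 and 45 UMIs in vehicle and 0 and 1 in PM, while the mature members had a log2 fold change of 0.07. The 45 UMIs came from vehicle 2 alone. Ccl3 had 0 and 30 UMIs in the Ltf-high cells of vehicle and 3 and 4 in PM, and Ccl9 1 and 19 against 7 and 5, so that vehicle 2 held most of the UMIs of each of these chemokines there. Without vehicle 2 none of the 3 was called, with differences of 4.50, -4.11 and 0.07 for Ccl4, Ccl3 and Ccl9 (adjusted p of 0.0672, 0.871 and 1.00). Apoe lost its call without vehicle 1 (1.38, adjusted p 0.506), while Egr1 was called without any 1 mouse. Egr1 was called neither in the members (adjusted p 0.193) nor in the Ltf-high cells alone (0.129). With every cell thinned to 2000 UMIs none of these 5 genes was called, with differences of 7.24, 3.68, 3.54, 2.54 and 2.15 for Ccl4, Ccl3, Ccl9, Egr1 and Apoe (adjusted p of 0.113, 0.0726, 0.163, 0.0850 and 0.301).

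Below were Zfp36l1, an RNA-binding protein that destabilizes transcripts (-5.65, adjusted p 1.60e-09 by edgeR), Ctsg, which encodes cathepsin G (-3.59, 0.0222), Jaml (-3.30, 0.0230), Cxcl2 (-3.23, 8.46e-08) and Ifitm1 (-2.71, 7.49e-09). Zfp36l1 had 2 and 0 UMIs in vehicle and 81 and 47 in PM in the Ltf-high cells, and Ifitm1 20 and 10 against 106 and 99. Cxcl2 had 7 and 8 against 12 and 85, so that PM 2 held most of its UMIs there, and in Ltf-high cells tested alone its log2 fold change was 2.14 ± 1.70 (SE) and not called (adjusted p 0.789, edgeR). Without PM 2 the difference for Cxcl2 was -2.43 and called (adjusted p 0.0184). Ctsg had 1 and 0 UMIs against 17 and 4, and Jaml 1 and 1 against 20 and 5, mostly from PM 1. Without PM 1 they were not called (adjusted p of 0.684 and 0.743), nor without vehicle 2 (0.518 and 0.396). Without precursor cells Ctsg and Jaml were no longer called, with differences of -1.80 and -3.16 (adjusted p of 0.649 and 0.0907), and the other 8 were. Both also lost their calls with cells thinned to 2000 UMIs (adjusted p of 0.605 and 0.464), and Jaml without marked doublets (-2.11, 0.337), while Zfp36l1, Cxcl2 and Ifitm1 kept theirs in these fits.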

How the results depend on the processing

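With 2 mice a group, the number of called genes depended on the processing. Against 112 genes higher and 126 lower, edgeR gave 590 and 643 with no filter on low counts, 68 and 21 with members of 0 Ltf UMIs only, and 8 and 1 in precursor cells alone. The lower genes numbered 193 with DESeq2, 53 with at least 2 Cxcr2 UMIs, 78 without the gates on Ptgs2, Ifit1 and Ifit3, 71 with cells thinned to 2000 UMIs and 43 without precursor and other-lineage cells. Without precursor cells 291 genes were higher, and DESeq2 then called 174 higher and 76 lower. Leaving out 1 mouse gave 33 to 185 higher and 9 to 397 lower, and without precursor cells 55 to 722 and 5 to 413.

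The replicate number as a block gave 30 higher and 8 lower with all members, and 0 and 0 without precursor cells, where 1057 were higher and 527 lower at an unadjusted p under 0.05. The labels do not pair the mice, and same-numbered mice had a correlation of deviations of -0.164. A crossed pairing, added after the data were seen, gave 511 and 654.

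Against 32 genes above and 110 below the Ltf-high effect, there were 21 and 31 with thinned cells, 215 below with no filter, and 57 and 30 below without precursor cells and without precursor and other-lineage cells. Leaving out 1 mouse gave 15 to 46 above and 48 to 166 below. The log2 fold change of Tnf, -0.28 and not called, was 0.014 with thinned cells and 0.019 without precursor and other-lineage cells. The cause of these changes was not tested. The share of mature neutrophils stayed lower with PM in every setting run, with differences of -2.92 to -6.61 percentage points where all mice were used. Low counts per mouse limited the genes that could be tested.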

Other observations

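Genes of sterol synthesis and transport, a list put together after Idi1 and Hmgcs1 had been seen to fall, included 3 genes called lower (Hmgcs1, Idi1 and Srebf2) and 1 called higher (Abcg1) of 26 tested in the mature neutrophils, with a median log2 fold change of -0.42. Among all genes tested in them, 1.15% were called lower and 1.02% higher. Srebf2, which encodes the transcription factor that induces this pathway, had 71.4 and 52.5 CPM in vehicle and 30.5 and 31.7 CPM in PM. Abcg1, a cholesterol exporter, had 22.5 and 29.8 CPM in vehicle and 49.5 and 53.9 CPM in PM. The groups did not overlap for either gene, as was also so for many of all genes tested, so that the gap is no further support. Without precursor cells 5 of 22 were called lower, now also with Fdft1 and Cyp51, against 1.24% of all genes tested there, and the median was -0.47. Since the list was chosen on these values, it is a description with no test of its own.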
